A study of Mus musculus with 50 samples.

Results

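Collagen genes outside the X chromosome were followed through 8 RNA-seq libraries of mouse cells that carry or lack Repeat B, one of the repeated stretches of Xist RNA. Members were all genes whose symbol has the form of a collagen chain (Col, a type number, the letter a and a chain number) and whose listed chromosome is not X. The rule found 42 of the 24391 genes in the deposited tables, spread over 14 autosomes. They were divided by the known structure of their proteins into 11 fibrillar genes, 6 basement membrane genes and 25 others. The X-linked chains Col4a5 and Col4a6 are not members and are named only beside their partners.

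Xist coats the X chromosome that is silenced in female cells, and the study asked what its Repeat B contributes to that silencing. All samples come from a cross of the CAST/Ei and 129/Sv/Jae strains, so that reads over strain variants can be given to 1 strain. They tell the parental copies apart only where copies of both strains are present. Embryonic stem (ES) cells, which can form all tissues of the body, were wild type (WT), RepB+/- or RepB-/-, with 2 libraries each. They had been grown on fibroblast feeders, freed of the feeders and differentiated for 4 days in suspension as embryoid bodies and for 10 further days on gelatin-coated plates, so they are mixed differentiated cultures rather than stem cells. Mouse embryonic fibroblasts (MEF), connective tissue cells taken from embryos, were wild type or had lost Repeat B (RepB), with 1 library each. The labels do not say which allele was deleted in RepB+/-, whether the RepB fibroblasts lost the repeat on 1 or both alleles, how many clones stand behind a genotype, or whether the 2 libraries of a genotype are separate cultures. The p-values below therefore measure only the spread between these libraries, and line and genotype cannot be told apart.

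Collagens are the main structural proteins of connective tissue, built from 3 chains wound into a triple helix. Fibrillar collagens form the ropes of skin, bone, tendon and cartilage. Type IV collagen forms the sheet of the basement membrane under epithelium, endothelium and muscle, where the multiplexins Col15a1 and Col18a1 also lie. The other classes coat fibrils, form beaded filaments or short-chain networks, anchor basement membranes or span the cell membrane. Fibroblasts and the mesoderm of embryoid bodies are known for making the fibrillar chains.

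Library totals ran from 8000722 counts (RepB+/- ES replicate 2) to 28045645 counts (RepB-/- ES replicate 1). Levels are in CPM (counts scaled to a common library size, here after TMM scaling over the 8 libraries). Levels of single genes are compared with each other per length, as RPKM (CPM divided by the exon length in kilobases). Ranks among all genes, shares of counts and summed levels are not scaled by length. Xist itself is no check of the labels, because the deletion removes a repeat and not the gene: its level was 771 to 1101 CPM in the 6 ES libraries, 477 CPM in WT MEF and 567 CPM in RepB MEF. Of 12 fibroblast markers, all had reads in WT MEF and 3 had 0 reads in RepB MEF. These were Thy1 (117 reads in WT MEF), Lum (5 reads) and Fap (1 read). Of 10 with a mean of at least 1 CPM, 3 (Thy1, Dcn and Fn1) were more than 2-fold lower in RepB MEF and 0 higher. Dcn rested on 37 reads in WT MEF and 5 in RepB MEF. Of all 11680 genes at that minimum, 6.47% were lower and 3.33% higher by the same limit. The summed level of the marker list was 8902 CPM in RepB MEF against 17872 CPM in WT MEF, most of it Fn1 (7509 and 16087.5 CPM).

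Promoter sequence of 33 members was found in a RefSeq table of build GRCm38.p6, and 9 members had none there. Shown are the 250 bases before the annotated start of Col1a2, the second most abundant collagen transcript, and of the 4 members that rose in both RepB genotypes of ES cells. Capitals mark CCAAT, known as the core of the CCAAT box, which reads ATTGG when it lies on the other strand. They also mark GGGCGG, the core of the GC box, which reads CCGCCC on the other strand. TATAAA, was searched on both strands too and is in none of the 5. The windows lie at chr6:4505368-4505617 (plus strand, Col1a2), chr9:105828086-105828335 (minus strand, Col6a6), chr16:57754738-57754987 (minus strand, Col8a1), chr4:126286544-126286793 (plus strand, Col8a2) and chr4:47207762-47208011 (plus strand, Col15a1). The sequences read 5′ to 3′ toward the gene.
Col1a2: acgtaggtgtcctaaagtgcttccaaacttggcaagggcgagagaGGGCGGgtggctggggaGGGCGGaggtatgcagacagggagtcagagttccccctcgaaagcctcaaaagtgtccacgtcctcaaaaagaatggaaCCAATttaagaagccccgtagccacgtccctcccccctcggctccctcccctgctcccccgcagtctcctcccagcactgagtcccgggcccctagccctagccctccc
Col6a6: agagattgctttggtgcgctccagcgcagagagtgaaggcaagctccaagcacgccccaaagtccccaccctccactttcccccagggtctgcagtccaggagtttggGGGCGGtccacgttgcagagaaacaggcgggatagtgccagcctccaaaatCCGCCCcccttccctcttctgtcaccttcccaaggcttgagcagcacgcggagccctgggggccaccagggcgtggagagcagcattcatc
Col8a1: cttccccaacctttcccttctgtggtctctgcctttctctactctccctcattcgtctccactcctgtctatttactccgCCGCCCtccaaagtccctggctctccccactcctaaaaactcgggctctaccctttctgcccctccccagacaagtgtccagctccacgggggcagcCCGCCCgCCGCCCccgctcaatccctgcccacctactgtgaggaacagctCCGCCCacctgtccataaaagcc
Col8a2: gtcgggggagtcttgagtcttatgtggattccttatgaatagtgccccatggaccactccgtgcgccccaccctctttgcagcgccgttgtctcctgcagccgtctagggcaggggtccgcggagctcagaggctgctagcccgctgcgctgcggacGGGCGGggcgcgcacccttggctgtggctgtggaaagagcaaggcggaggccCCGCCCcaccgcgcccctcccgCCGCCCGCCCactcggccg
Col15a1: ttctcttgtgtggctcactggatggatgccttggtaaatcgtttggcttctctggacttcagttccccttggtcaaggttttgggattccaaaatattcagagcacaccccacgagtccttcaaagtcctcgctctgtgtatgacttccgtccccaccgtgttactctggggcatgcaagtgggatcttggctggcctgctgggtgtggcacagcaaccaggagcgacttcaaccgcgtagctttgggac
GGGCGG was present in 19 of the 33 member windows (57.6%) and in 32.9% of all 27025 promoters of the same length. The median GC content was 60.4% over the member windows and 52.0% over all promoters. CCAAT was present in 11 of 33 (33.3%) against 34.5% of all promoters, and TATAAA in 5 of 33 (15.2%) against 13.0%. Of the 4 genes that rose in both genotypes, Col8a1 and Col8a2 held 4 matches to GGGCGG each, Col6a6 held 2 and Col15a1 held none of the 3 motifs. A match says only that these letters are there. Col4a1 and Col4a2 are divergent genes whose annotated starts are 21 bases apart on opposite strands of chromosome 8.

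Fibrillar chains dominated the collagen RNA of both cell types. Collagens took 2.94% and 3.56% of all counts in the 2 WT ES libraries, 2.65% and 4.20% in RepB+/-, 2.91% and 3.34% in RepB-/-, 5.59% in WT MEF and 5.23% in RepB MEF. Col1a1 is the major chain of type I collagen of skin and bone. By counts not scaled by length, it ranked second among all genes in each ES library and first in both MEF libraries. The 5 members with the most counts held 77.5% to 83.1% of collagen counts in the 8 libraries.

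**Figure D1:**
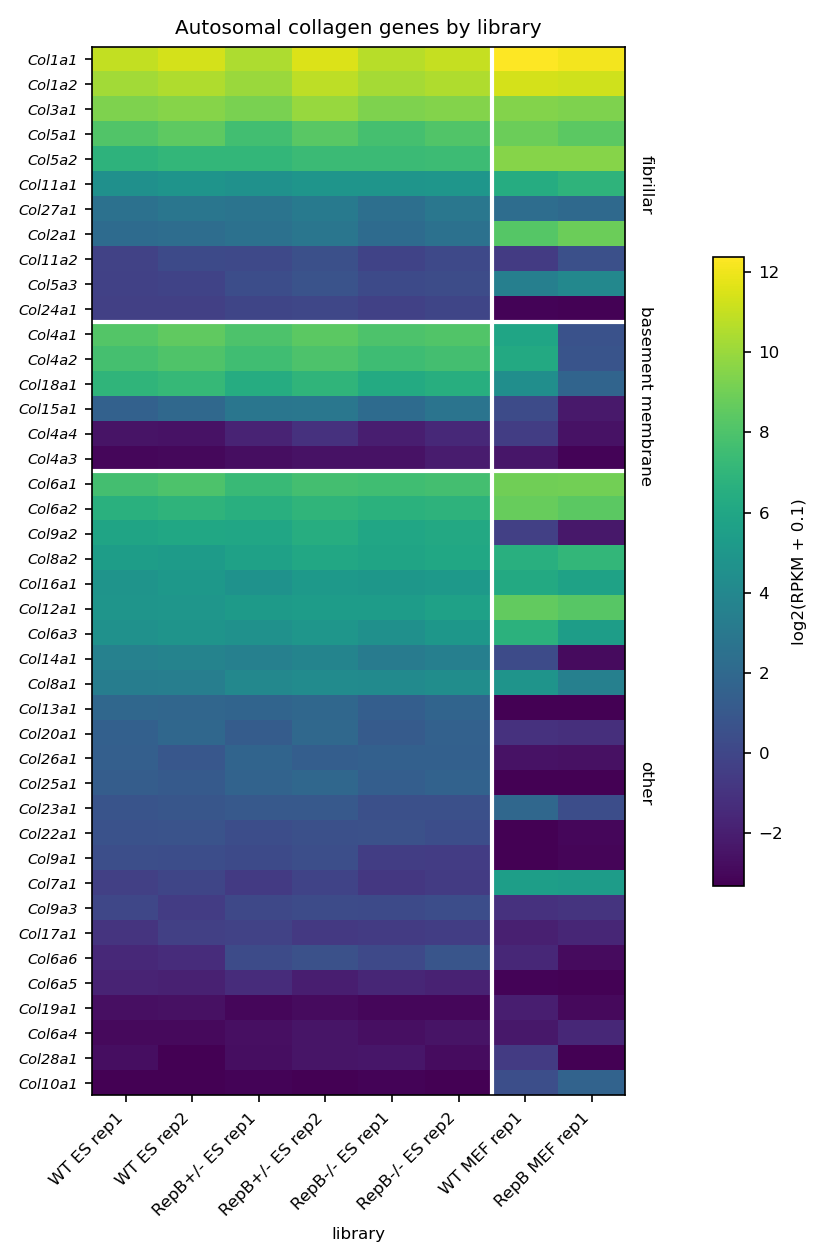
Level of each of the 42 autosomal collagen genes (rows, ordered within class by the mean in wild-type ES cells) in each of the 8 libraries (columns), as log2(RPKM + 0.1) by colour, with white lines between classes and between ES and MEF libraries. Col1a1 has the highest level in every library, and the basement membrane rows Col4a1, Col4a2 and Col18a1 are bright in the ES columns and dark in the RepB MEF column.

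In WT ES cells, mean levels per length covered a wide range, from 2286 ± 479 RPKM for Col1a1 and 1324 ± 179 RPKM for its partner chain Col1a2 to 0 reads for Col10a1, the collagen of hypertrophic cartilage (mean ± SD, n = 2 throughout the ES levels). Col3a1, the fibrillar chain of blood vessels and loose tissue, followed at 695 ± 71.9 RPKM. Next came Col4a1 (334 ± 60.3 RPKM) and Col5a1 (324 ± 60.1 RPKM), which did not differ beyond their spread. Col4a2 (246 ± 37.5 RPKM) and Col6a1 (233 ± 39.9 RPKM) were likewise within each other's spread. Col18a1 (137 ± 17.01 RPKM) and Col5a2 (126 ± 15.9 RPKM) overlapped too. Col6a2 (112 ± 13.2 RPKM) overlapped Col5a2 but not Col18a1, at 103 and 121 RPKM against 125 and 149 RPKM in the 2 libraries. Both WT ES libraries held these genes in the order given here. These 10 genes were the members above 100 RPKM. A further 18 lay between 1 and 100 RPKM, and 6 were below 0.1 RPKM.

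Fibroblasts differed from the differentiated ES cells in class composition, with 39 members kept (at least 1 CPM on average of WT MEF and the WT ES mean). Of these, 18 were more than 2-fold higher in WT MEF than in the mean of WT ES (15.5% of 13276 genes were) and 15 were more than 2-fold lower (24.3% of genes). This comparison has 1 MEF library and no test, and cell type, culture and table differ together. Fibrillar genes were higher in 5 of 11 cases and lower in 1. Col2a1, the main collagen of cartilage, was at 22.7 and 24.7 CPM in WT ES and 1546 CPM in WT MEF, 65.2-fold higher. Col7a1, which forms the anchoring fibrils of skin, was at 6.43 and 7.99 CPM in WT ES and 412 CPM in WT MEF, 57.1-fold higher. Col12a1, which coats type I fibrils, was at 340 and 361 CPM in WT ES and 4508 CPM in WT MEF, 12.9-fold higher. In the other direction, Col9a2, a chain that decorates cartilage fibrils, was at 161 and 184 CPM in WT ES and 1.84 CPM in WT MEF, 93.5-fold higher in ES. Of the 5 basement membrane genes kept, 4 were lower in WT MEF: Col18a1 6.40-fold, Col4a1 5.48-fold, Col4a2 3.33-fold and Col15a1 3.01-fold. The fifth, Col4a4, was 8.14-fold higher in WT MEF, but on few reads (12 and 7 in WT ES and 49 in WT MEF).

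Some partner chains of 1 protein kept their ratio between the ES libraries and the 1 WT MEF library, and others did not. The level per length of Col6a3 was 0.221 to 0.274 times that of Col6a2 in ES libraries, 0.265 times in WT MEF and 0.124 times in RepB MEF. Col8a2 to Col8a1 was 3.07 to 4.27 in ES libraries, 3.40 in WT MEF and 11.6 in RepB MEF. Other pairs differed, among them the remaining pairs of Col6a1, Col6a2 and Col6a3, so type VI as a whole did not keep its ratios. Col6a3 to Col6a1 was 0.107 to 0.155 in ES libraries, 0.218 in WT MEF and 0.082 in RepB MEF. Col6a1 to Col6a2 was 1.69 to 2.16 in ES libraries, 1.21 in WT MEF and 1.51 in RepB MEF. The level per length of Col1a1 was 1.34 to 1.81 times that of Col1a2 in the 6 ES libraries, 2.03 times in WT MEF and 1.82 times in RepB MEF. Triple helices of type I collagen hold 2 chains of the first and 1 of the second. For the basement membrane pair, Col4a1 to Col4a2 was 1.33 to 1.40 in ES libraries, 0.826 in WT MEF and 0.901 in RepB MEF. For the fibril-initiating type V chains, Col5a1 to Col5a2 was 2.45 and 2.67 in WT ES, 1.499 and 1.98 in RepB+/-, 1.28 and 1.59 in RepB-/-, 0.627 in WT MEF and 0.473 in RepB MEF. The WT ES ratios of type V lay above all 4 mutant ES ratios, although neither chain was called on its own in either genotype. This was not particular to that pair. The same held for Col6a1 to Col6a2, Col8a2 to Col8a1 and Col5a2 to Col5a3. For Col6a3 to Col6a1 and Col9a2 to Col9a1 the WT ES ratios lay below all 4 mutant ratios, and for Col1a1 to Col1a2 and Col4a1 to Col4a2 they overlapped.

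In RepB+/- ES cells, 8 of the 40 members tested rose against wild type and 0 fell, at a Benjamini-Hochberg adjusted p under 0.05 in edgeR's quasi-likelihood test over 15149 genes. Over all genes tested, 9.12% rose and 6.84% fell, so that the members' 8 of 40 stood above the share of all genes that rose, and their 0 below the share that fell. Their median log2 fold change was 0.24, against 0.02 over all genes. At an unadjusted p under 0.05 there were 9 of 40 members, 0 of them lower, and 4717 of all 15149 genes. DESeq2 also gave 0 members that fell, while 1 fell with no filter on low counts, 2 with the replicate number as a block and 4 without RepB+/- replicate 2. Col10a1 and Col28a1 were too low to test.

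Risers in RepB+/- came from all 3 classes. Col6a6, a chain of the beaded filaments of type VI collagen, was at 1.89 and 2.20 CPM in WT and at 8.25 and 10.4 CPM in RepB+/-. All mutant values of Col6a6 stood above the wild-type values, a log2 fold change of 2.17 ± 0.29 (SE, adjusted p = 0.000205, edgeR). Col15a1, a multiplexin of the basement membrane zone, was at 14.8 and 20.2 CPM in WT and at 36.9 and 38.7 CPM in RepB+/- (log2 fold change 1.13 ± 0.19, adjusted p = 0.000879, edgeR). The chains of the short-chain network collagen VIII, found under corneal and vessel endothelium, rose together. Col8a1 was at 50.7 and 52.3 CPM in WT and at 82.8 and 98.9 CPM in RepB+/- (0.82 ± 0.12, adjusted p = 0.000290, edgeR). Col8a2 was at 183 and 169 CPM in WT and at 218 and 299 CPM in RepB+/- (0.56 ± 0.14, adjusted p = 0.0165, edgeR).

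The other 4 risers of RepB+/- were called in that genotype and not in RepB-/-. The minor fibrillar chain Col5a3 was at 4.44 and 4.81 CPM in WT and at 7.34 and 9.12 CPM in RepB+/- (log2 fold change 0.81, adjusted p = 0.0174, edgeR). Col2a1 was at 22.7 and 24.7 CPM in WT and at 29.9 and 36.6 CPM in RepB+/- (0.48, adjusted p = 0.0397). Col25a1, a membrane-spanning collagen known from neurons, was at 17.8 and 15.5 CPM in WT and at 23.3 and 27.4 CPM in RepB+/- (0.59, adjusted p = 0.0149). Col4a4, a type IV chain of specialised basement membranes such as that of the kidney filter, rested on 12 and 7 reads in WT and 46 and 24 reads in RepB+/- (1.79, adjusted p = 0.0228). In each of the 8 risers, both mutant libraries were above both wild-type libraries. With RepB-/- against RepB+/-, the log2 differences of these 4 genes were -0.23 (Col5a3), -0.33 (Col2a1), -0.30 (Col25a1) and -0.42 (Col4a4), and none passed the test (adjusted p of 0.711 to 0.932, edgeR).

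**Figure D2:**
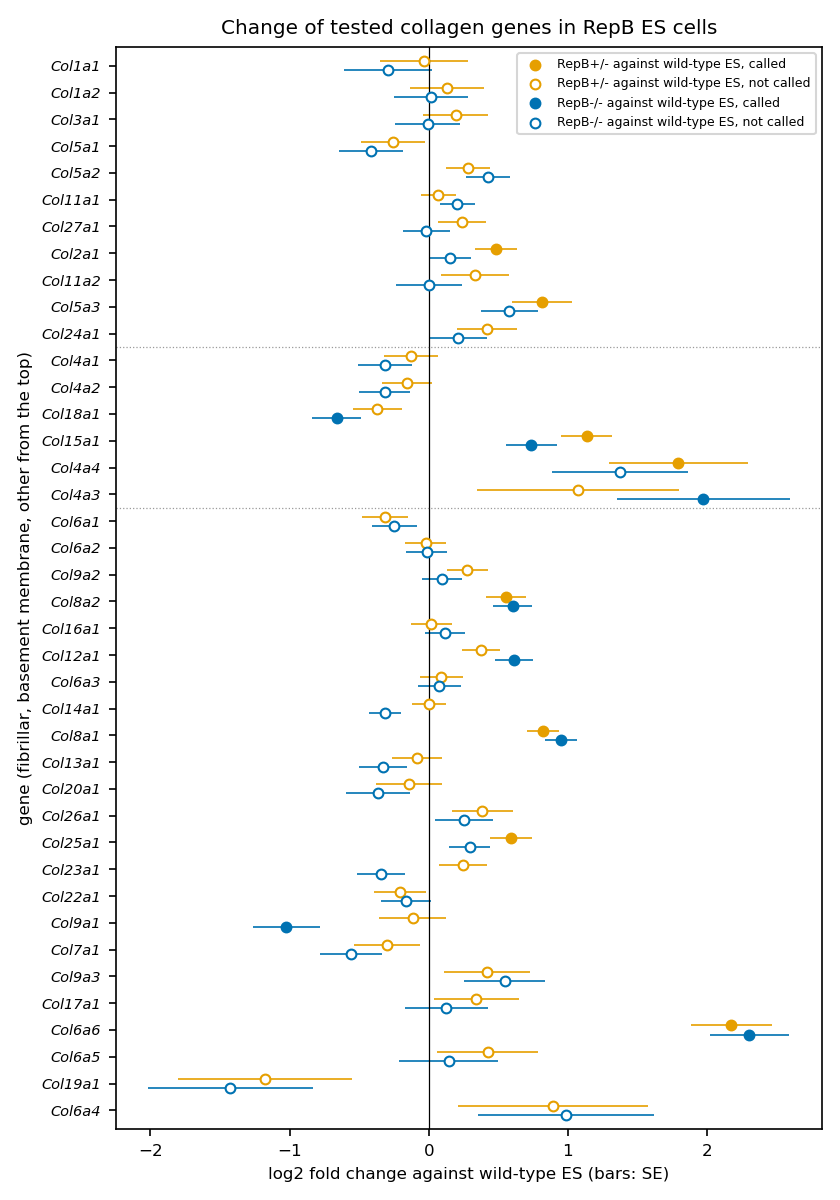
Log2 fold change against wild-type ES cells (x axis, bars are SE) of the 40 tested members (y axis, fibrillar, basement membrane and other from the top), in RepB+/- (orange) and RepB-/- (blue). Filled points passed the adjusted p of 0.05 (8 in RepB+/- and 8 in RepB-/-), and Col6a6 lies above 2 in both.

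In RepB-/- ES cells, 6 of 40 members rose (7.27% of all genes rose) and 2 fell (5.49% of all genes fell), with a median log2 fold change of 0.09 against 0.01 over all genes. The 6 include Col4a3, which passed the filter on low counts only through RepB-/-, the group where it was high, so the count is not read against the share of all genes. This comparison shares its wild-type libraries with that of RepB+/-, so values of both are given side by side and no overlap is read from them. Col6a6 was at 7.49 and 12.6 CPM (log2 fold change 2.30 ± 0.28, adjusted p = 0.000100, edgeR). Col8a1 was at 94.3 and 104 CPM (0.95 ± 0.11, adjusted p = 9.1e-05). Its partner Col8a2 was at 245 and 289 CPM (0.60 ± 0.14, adjusted p = 0.0116). Col15a1 was at 23.2 and 34.7 CPM (0.74 ± 0.18, adjusted p = 0.0145). Each of these 4, the members called in both genotypes, stood above the wild-type range given above in both libraries.

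Another 2 members rose in RepB-/- alone by the test. Col12a1 was at 340 and 361 CPM in WT, 433 and 472 CPM in RepB+/- and 476 and 595 CPM in RepB-/- (log2 fold change 0.61, adjusted p = 0.00742, edgeR). In RepB+/- its change was 0.38 with an adjusted p of 0.0693. Col4a3, which forms a trimer with Col4a4 and the X-linked Col4a5, rested on 4 and 3 reads in WT and 19 and 26 reads in RepB-/- (1.97, adjusted p = 0.0488). X-linked Col4a5 was not called in either genotype (log2 fold changes of 0.11 and 0.08).

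Both members that fell did so in RepB-/-. Col9a1, a cartilage chain that partners Col9a2, was at 5.18 and 5.05 CPM in WT, 4.34 and 5.30 CPM in RepB+/- and 2.56 and 2.45 CPM in RepB-/-. The RepB-/- libraries were below the other 4, and the gene fell by 1.02 on the log2 scale (SE 0.24, adjusted p = 0.0105, edgeR). Col9a2 was not called (log2 fold change 0.10), nor was Col9a3 (0.55). Col18a1, whose C-terminal part can be released as endostatin, was at 723 and 862 CPM in WT, 489 and 729 CPM in RepB+/- and 454 and 545 CPM in RepB-/-. It fell by 0.66 (SE 0.18, adjusted p = 0.0219), while its relative Col15a1 rose.

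**Figure D3:**
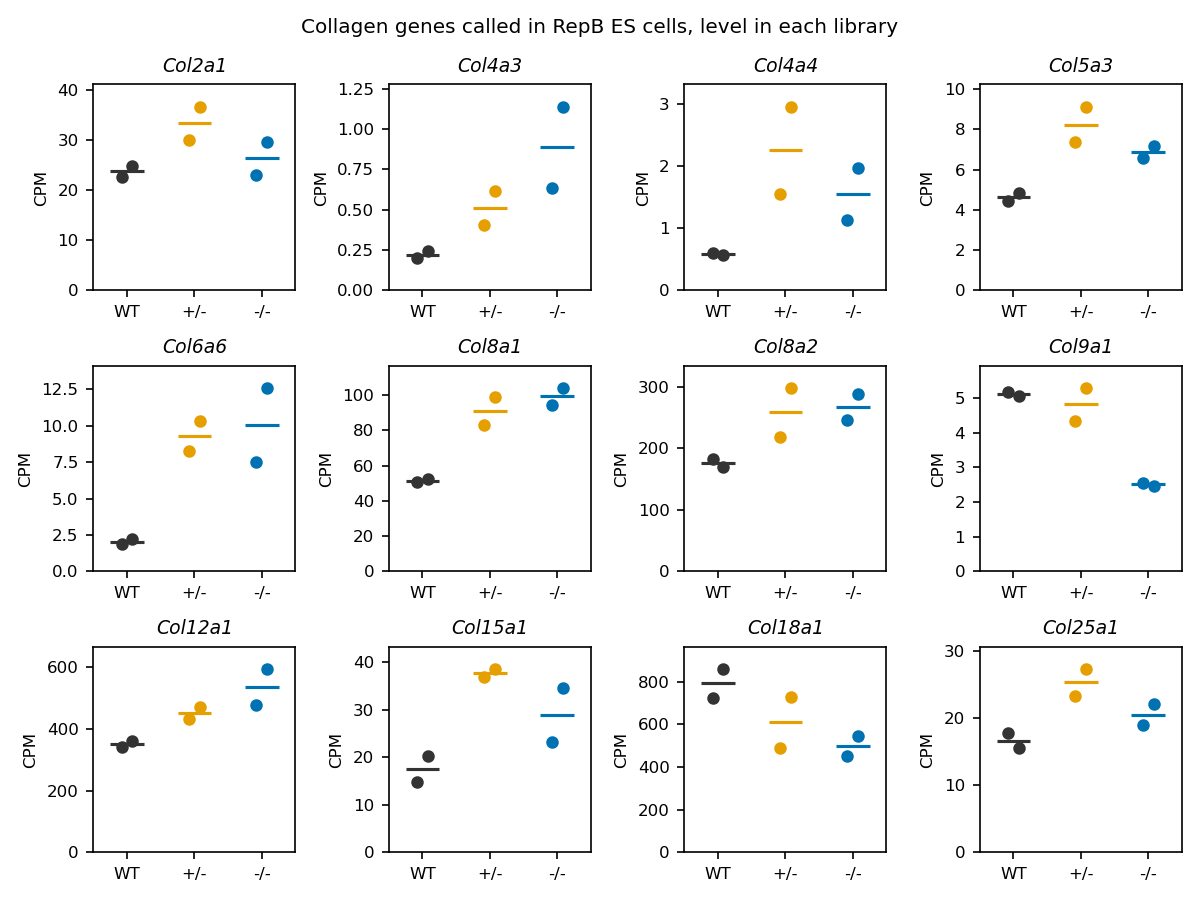
Level in CPM (y axis, starting at 0) of the 12 members called in either genotype, in the wild-type (WT), RepB+/- and RepB-/- ES libraries (x axis); points are libraries and lines are means of 2. Both RepB-/- points of Col9a1 and Col18a1 lie below the wild-type points, and those of the other members called in RepB-/- lie above them.

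Directly compared, RepB-/- and RepB+/- ES cells differed in 0 of 40 members by edgeR and in 0 by DESeq2, with 5 at an unadjusted p under 0.05 (Col9a1, Col23a1, Col14a1, Col15a1 and Col2a1, all lower in RepB-/-). Of all genes tested, 1003 of 15149 were at an unadjusted p under 0.05, 0.0198% rose and 0.066% fell. The median log2 difference of the members was -0.20, with 11 members wholly below RepB+/- (16.7% of genes) and 2 wholly above it (17% of genes). Col9a1 had the lowest of these p-values (log2 difference -0.91, adjusted p = 0.302, edgeR), so a dose effect of the second deleted allele was not detectable for any member with 2 libraries a genotype.

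The most abundant chains did not pass the test in either genotype. Col1a1 was at 9149 and 12329 CPM in WT, 6508 and 14295 CPM in RepB+/- and 7971 and 9522 CPM in RepB-/-. The RepB+/- values lie on both sides of the wild-type values, and the log2 fold changes were -0.03 and -0.29. Col1a2 changed by 0.13 and 0.02 and Col3a1 by 0.19 and -0.01 in RepB+/- and RepB-/-, none of them called. Col4a1 (-0.13 and -0.31) and Col4a2 (-0.16 and -0.32) were not called either. Among the genes next to each other on chromosome 9, Col6a6 was called while Col6a5 (0.42 and 0.14) and Col6a4 (0.89 and 0.99, on 3 to 13 reads a library) were not. The main type VI chains Col6a1, Col6a2 and Col6a3 lay between -0.31 and 0.09 in both genotypes, none called. Summed over members, fibrillar collagens reached 25255 ± 4216 CPM in WT, 25786 ± 10994 CPM in RepB+/- and 22937 ± 2526 CPM in RepB-/- (SD, n = 2). The basement membrane sum was 4602 ± 743, 4069 ± 910 and 3570 ± 344 CPM.

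Replicate libraries differed in the same direction for most collagens. Replicate 2 was above replicate 1 for all 11 fibrillar genes in each of the 3 genotypes, and for 31, 36 and 34 of the 40 tested members in WT, RepB+/- and RepB-/-. Over all genes tested the shares were 48.0%, 47.2% and 49.5%. Replicates 1 and 2 were deposited in separate tables, and what else separates them is not given in the sources used here. All 16 calls had no overlap between the libraries compared, so each held its direction within replicate 1 and within replicate 2. In all, 14 members in RepB+/- and 15 in RepB-/- were wholly above wild type (29.3% and 31.1% of genes), and 2 and 12 were wholly below (29.4% and 28.4% of genes).

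Leaving out 1 library at a time gave 3 to 9 risers in RepB+/- and 2 to 9 in RepB-/-, with the fewest without a wild-type library or without replicate 2 of the mutant. In these refits 1 genotype has a single library, which is assumed to vary like the others. Calls of Col6a6 and Col8a1 in both genotypes and of Col15a1 in RepB+/- were kept in all 11 alternatives, and the other 11 of 16 calls were lost in at least 1. For RepB+/-, 4 members rose without WT replicate 1, 3 without WT replicate 2 and 4 without RepB+/- replicate 2, and in this last refit 4 members fell. For RepB-/-, 2 rose without WT replicate 1, 3 without WT replicate 2 and 2 without RepB-/- replicate 2, and of the 2 falls 1 or 0 remained in number without either WT or either RepB-/- library.

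Other cell types also moved between genotypes in these mixed cultures, and in bulk RNA fewer cells of a type and less RNA per cell cannot be told apart. Of 6 cardiac muscle markers, 5 fell in each genotype, and their summed level was 453 and 495 CPM in WT, 220 and 236 CPM in RepB+/- and 178 and 182 CPM in RepB-/-. Of 6 pluripotency markers, 6 rose in RepB+/- and 4 in RepB-/- (148 and 183 CPM in WT, 471 and 367 in RepB+/-, 339 and 306 in RepB-/-). Of 6 simple epithelium markers, 4 fell in each (1863 and 2016 CPM in WT, 1303 and 1253 in RepB+/-, 1431 and 1123 in RepB-/-). No marker of these 3 lists was at 0 in any ES library.

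Among mesenchymal lists, 4 of 12 fibroblast markers rose and 1 fell in RepB+/-, and 5 rose and 2 fell in RepB-/- (summed level 7038 to 9662 CPM in the mutants, 9435 to 11216 CPM in WT). Most of that sum was Fn1 (5614 to 8080 CPM in the mutants, 7730 and 9535 CPM in WT). Of 6 smooth muscle markers, 1 (Myh11) rose in each (2900 to 3689 CPM against 3852 and 4007 CPM). Of the 5 cartilage markers tested, none was called in either genotype by edgeR, and their summed level, 17.8 to 25.6 CPM in the 6 ES libraries, overlapped between genotypes. Of 3 bone markers tested, 1 (Alpl) fell in each, with 167 and 181 CPM for the list in WT and 117 to 134 CPM in the mutants (Ibsp, Bglap or Dmp1 was at 0 in 4 libraries).

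Of 10 endoderm markers, 3 rose in RepB+/- (Afp, Ttr and Apob) and 2 in RepB-/- (Afp and Apob), with 0 falling. The list summed to 2802 to 3173 CPM in all 6 libraries, with Lamc1 alone at 1201 to 1644 CPM. Afp was at 99.2 and 91.8 CPM in WT, 319 and 283 CPM in RepB+/- and 273 and 229 CPM in RepB-/-. Of 6 endothelial markers, 2 rose and 1 fell in RepB+/- and 2 fell in RepB-/- (325 and 357 CPM in WT, 316 and 327 in RepB+/-, 254 and 263 in RepB-/-). Of 5 blood markers tested, 2 and 3 rose (59.8 and 61.4 CPM in WT, 72.6 to 115 CPM in the mutants), with Hbb-b1 at 0 throughout. Of 6 neural markers, 2 rose and 2 fell in each (121 and 127 CPM in WT, 161 to 199 CPM in the mutants). The part of these shifts in the collagen results was not tested.

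In fibroblasts the basement membrane collagens differed most between the 2 libraries. RepB MEF had lower levels of all 5 basement membrane genes kept (mean of at least 1 CPM), and the summed level of all 6 was 1013 CPM in WT MEF and 39.9 CPM in RepB MEF, 25.4-fold lower. With 1 library a genotype there is no test: a difference past 2-fold is called, and intervals are 95% exact intervals of the count ratio that cover counting error only. Of 29 members kept, 10 were more than 2-fold lower (6.47% of 11680 genes were) and 3 more than 2-fold higher (3.33% of genes).

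Col4a1 was at 403 CPM in WT MEF (4154 reads) and 9.60 CPM in RepB MEF (166 reads), 42.1-fold lower (36.0 to 49.5). Col4a2, its divergent neighbour, was at 475 and 10.4 CPM, 45.9-fold lower (39.6 to 53.6). The X-linked type IV chain Col4a6 was 48.4-fold lower (24.1 to 113) on 230 and 8 reads, while Col4a5 was 1.66-fold lower (1.51 to 1.83). Col18a1 was at 124 and 18.7 CPM, 6.62-fold lower (5.855 to 7.501). Lower still in reads were Col15a1 (60 and 10 reads, 10.1-fold lower, 5.13 to 22.1) and Col4a4 (49 and 9 reads, 9.16-fold lower, 4.45 to 21.2). The median log2 ratio of the 5 genes was -3.05, against 0.03 over all genes kept.

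Fibrillar genes were closer to level between the same libraries: 9 of 10 kept lay within 2-fold and 0 were more than 2-fold lower. Within 2-fold, ratios lay on both sides of 1, and the lowest was that of Col5a1, 0.726 (0.716 to 0.735). Col1a1 was at 25212 CPM in WT MEF and 20418 CPM in RepB MEF, a ratio of 0.808 (0.804 to 0.812). Col2a1 was at 1546 and 2369 CPM, a ratio of 1.53 (1.502 to 1.558), and the cartilage chain Col11a1 was at 619 and 879 CPM, a ratio of 1.42 (1.38 to 1.46). Its partner Col11a2 was the 1 fibrillar gene past 2-fold, on 33 and 128 reads (2.31-fold higher, 1.56 to 3.49).

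**Figure D4:**
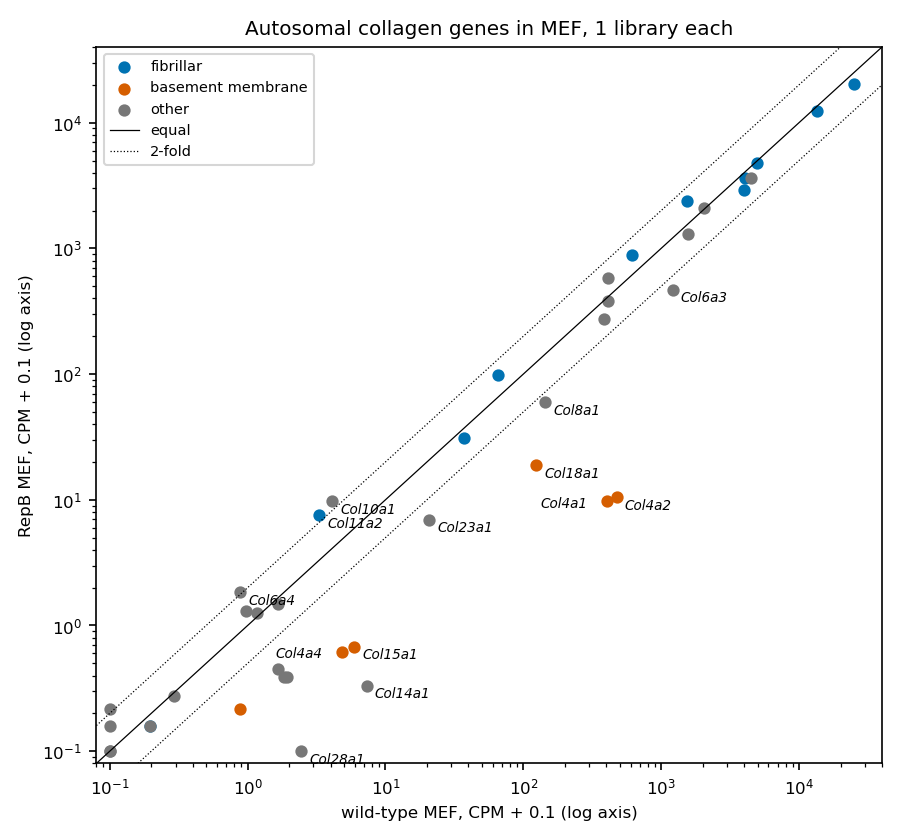
Level of each autosomal collagen gene in RepB MEF (y axis) against WT MEF (x axis), as CPM + 0.1 on log axes, 1 library each, coloured by class, with lines for equal level and for 2-fold; named points are those called past 2-fold. Fibrillar genes lie along the line of equal level, while Col4a1 and Col4a2 lie below it by 42.1-fold and 45.9-fold.

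The other class was divided, with 5 of 14 kept members lower and 2 higher. Col14a1, which coats fibrils, was lower by 31.1-fold on 74 and 4 reads (11.7 to 117). Col28a1 had 24 reads in WT MEF and 0 in RepB MEF, at least 13.5-fold lower against a floor of 3 reads a library, with an exact interval that reaches down to 10.1-fold. The membrane-spanning Col23a1 was 3.02-fold lower (2.40 to 3.82). Col6a3 differed from its partners: it was at 1210 and 467 CPM, 2.60-fold lower (2.52 to 2.67), while Col6a1 was at 2030 and 2088 CPM and Col6a2 at 1569 and 1295 CPM. Col8a1 was 2.42-fold lower (2.24 to 2.63) and its partner Col8a2 had a ratio of 1.41 (1.36 to 1.46), so that Col8a2 to Col8a1 per length was 3.40 in WT MEF and 11.6 in RepB MEF. Higher were Col10a1 on 41 and 166 reads (2.41-fold, 1.70 to 3.48) and Col6a4 on 8 and 30 reads (2.23-fold, with an interval of 0.999 to 5.63 that includes no difference). With a minimum of 5 CPM, 6 members were lower and 1 higher.

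Other basement membrane and mesenchymal genes also differed between the MEF libraries. Nid1, the linker of laminin and type IV collagen, was at 628 CPM in WT MEF and 0.463 CPM in RepB MEF (6464 and 8 reads). The basement membrane proteoglycan Hspg2 was 2.40-fold lower. Nid2, the relative of Nid1, went the other way, at 244 CPM in WT MEF and 344 CPM in RepB MEF (ratio 1.40, 1.34 to 1.47). Endothelial markers, whose cells make type IV collagen, summed to 1.55 CPM in WT MEF and 0.694 CPM in RepB MEF, with Emcn and Tie1 at 0 in both. Endoderm markers summed to 1144 and 617 CPM, most of it the laminin chains Lamc1 (779 and 390 CPM) and Lamb1 (348 and 208 CPM). Of 4 kept, 1 (Lamc1) was lower, and Sox17 and Gata4 were at 0 in both. The laminin chain Lama1 was not lower, with a ratio of 1.15 (0.925 to 1.44). Epithelial markers summed to 5.05 and 1.16 CPM, and smooth muscle markers to 7379 and 4618 CPM with 2 of 5 kept lower (Cnn1 and Myocd, the latter at 0 in RepB MEF). Cartilage markers summed to 174 and 119 CPM, with Acan 3.55-fold lower (503 and 238 reads) and Comp 2.41-fold higher (18 and 73 reads) of 4 kept. The list also had Sox9, the regulator of Col2a1, at 121 and 99.7 CPM and Hapln1 at 0 in both. Neural markers summed to 351 and 202 CPM with 2 of 4 kept lower, bone markers to 84.4 and 74.2 CPM and blood markers to 8.64 and 7.06 CPM. Cardiac and pluripotency markers summed to under 1 CPM in both. The part of these markers in the collagen values was not tested.

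Genes that process, bind or regulate collagen were followed from lists written by role, 91 genes in the table and 83 tested in ES cells. In RepB+/- 9 rose and 8 fell, and in RepB-/- 14 rose and 5 fell, beside 9.12% and 6.84% of all genes in the first and 7.27% and 5.49% in the second. The risers of both include Lair1, which passed the filter on low counts only through the mutants, where it was high. The counts are therefore not read against the shares of all genes. Between the mutants 0 of 83 differed (edgeR and DESeq2). In RepB+/-, 3 rose and 4 fell without WT replicate 1, 4 and 3 without WT replicate 2, 11 and 4 without RepB+/- replicate 1, and 9 and 15 without RepB+/- replicate 2. In RepB-/-, 9 rose and 4 fell without WT replicate 1, 6 and 2 without WT replicate 2, 10 and 3 without RepB-/- replicate 1, and 6 and 4 without RepB-/- replicate 2.

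Of 13 enzymes that modify proline and lysine in new chains, 2 fell in each genotype and 0 rose, with a median log2 change of -0.20 in RepB+/- and -0.16 in RepB-/-. P4ha2, a catalytic subunit of prolyl 4-hydroxylase, was at 307 and 364 CPM in WT, 167 and 188 CPM in RepB+/- and 212 and 214 CPM in RepB-/-, and fell in both (by 0.91 and by 0.65 on the log2 scale, adjusted p = 0.000191 and 0.00231, edgeR). P4ha1 fell in RepB+/- (by 0.48) and P3h2, a prolyl 3-hydroxylase, in RepB-/- (by 0.54). Of 11 chaperones and export factors, 1 (Sec24d) fell in RepB+/- and 0 were called in RepB-/-.

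Of 8 propeptide-cleaving genes, 3 rose in RepB+/- (Adamts14 by 0.69, Tll1 by 1.20, Pcolce2 by 1.09 log2 units) and 2 in RepB-/- (Adamts14 by 0.79, Adamts3 by 0.56), with 0 falling. Of 5 lysyl oxidases, which cross-link fibrils, Lox rose in RepB-/- by 0.56. Of 13 matrix proteins that bind collagen, the small proteoglycans Dcn, Lum and Fmod rose in both genotypes (Dcn from 210 and 165 CPM in WT to 314 and 354 CPM in RepB+/- and 355 and 378 CPM in RepB-/-). Thbs2 rose in RepB-/- by 0.47. Postn, like Dcn and Lum also on the fibroblast list, fell in both (by 0.80 and 0.84) and Nid1 in both (by 0.47 and 0.48).

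Of 9 collagen receptors tested, the integrin chain Itga11 rose by 0.58 and 0.96 in RepB+/- and RepB-/-. The leukocyte receptor Lair1 was called with 2.38 and 2.31, from a level of at most 0.249 CPM in WT to at most 1.36 CPM in the mutants. Lair1 passed the filter on low counts only through the mutants, where it was high, so its call is no support for a rise. Itga1 rose in RepB-/- by 0.44. Of 8 collagenases and inhibitors, Mmp9 rose (by 0.77 and 1.09) and Mmp15 fell (by 0.70 and 0.88) in both, and the inhibitors Timp2 and Timp3 rose in RepB-/- (by 0.36 and 0.69). Of 16 regulators, Sox6 and Klf4 fell in RepB+/- and Tgfb3 rose in RepB-/-. In MEF, 10 of 77 kept genes of these lists were more than 2-fold lower in RepB (6.47% of all genes kept were) and 5 higher (3.33%), among them Adamts2, the N-propeptidase of fibrillar collagens (4.11-fold lower, 3.79 to 4.46), and P4ha1 (2.12-fold higher, 2.01 to 2.23).

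Reads given to 1 strain offered a second readout of the same genes where both strains had reads. In WT ES replicate 1 the median gene of chromosomes 1, 3, 4, 6, 10, 12 and 14 to 19 had 99.4% to 99.8% of reads from 129. In WT MEF the medians of these chromosomes were 40.8% to 57.0%. Where whole ES chromosomes read as 129, expression of 1 allele and the presence of 129 sequence alone cannot be told apart. In ES cells 26 members had at least 20 such reads in all 6 libraries. Of these, 19 had over 95% of reads from 129 in each library, and 7 had reads from both strains: Col1a1, Col1a2, Col5a1, Col12a1, Col4a1, Col4a2 and Col20a1. Of 11074 autosomal genes in WT replicate 1, 66.2% had over 80% of reads from 129 and 22.3% had 40% to 60%. By the same limits in that library, 22 of 33 members had over 80% and 4 had 40% to 60%, so the members were much like all genes. The 7 genes lay among others that also had both strains. Col1a2 had 33.5% to 35.7% of reads from 129, and genes within 2 Mb had medians of 27.8% to 32.1%, while the median of chromosome 6 was 99.3% to 99.4%. Col1a1 had 49.8% to 50.7%, genes within 2 Mb 51.3% to 52.7%, and chromosome 11 96.6% to 97.5%. The pair Col4a1 (36.8% to 39.3%) and Col4a2 (36.0% to 39.5%) lay beside medians of 34.1% to 37.0% nearby. Col12a1 was below its neighbourhood in every library (34.9% to 44.2% against 46.2% to 50.7%). Col20a1 was above it (61.7% to 84.9% against 48.9% to 50.1%). No member moved between the 2 kinds with genotype.

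Fibroblasts had reads of both strains for most members, and the balance differed between the 2 MEF libraries. Of 21 members with at least 20 allelic reads in both, 7 (33.3%) differed by over 20 percentage points, against 12.6% of 8886 autosomal genes. Col18a1 had 18.0% of reads from 129 in WT MEF (95% exact Clopper-Pearson interval 14.5% to 21.96%, 433 reads) and 82.0% in RepB MEF (73.1% to 89.0%, 100 reads). Col27a1, a fibrillar chain of cartilage, went the other way, 76.8% (69.7% to 82.9%) and 21.2% (16.1% to 27.1%). Col2a1 was at 68.6% and 96.3%, Col8a1 at 46.4% and 18.0%, and Col4a1 at 53.0% and 21.1% (38 reads in RepB MEF). Col4a2 had 934 reads from 129 and 1028 from CAST in WT MEF, and 11 and 39 in RepB MEF. Col1a1 was at 49.0% and 48.9%.

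Whole chromosomes differed in the RepB fibroblasts too. The median gene of chromosome 10, which carries Col18a1, Col6a1 and Col6a2, was at 50.8% in WT MEF and 65.8% in RepB MEF. The medians of chromosome 15 (Col2a1) were 52.4% and 66.0%, and those of chromosome 4 (Col27a1, Col16a1 and Col8a2) were 57.0% and 34.2%. Chromosomes 8 and 16, with Col4a1, Col4a2 and Col8a1, were near 50% in RepB MEF (50.6% and 50.0%). Multiplying level by share on the scale of the 2 MEF libraries, the 129 copy of Col4a1 went from 190 to 1.79 CPM and the CAST copy from 168 to 6.72 CPM, so both were low in RepB MEF. For Col8a1 the 129 copy went from 59.2 to 9.46 CPM and the CAST copy from 68.5 to 43.2 CPM. For Col2a1 the 129 copy went from 942 to 2023 CPM while the CAST copy went from 431 to 77.8 CPM. Line, genotype and library cannot be told apart here.

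**Figure D5:**
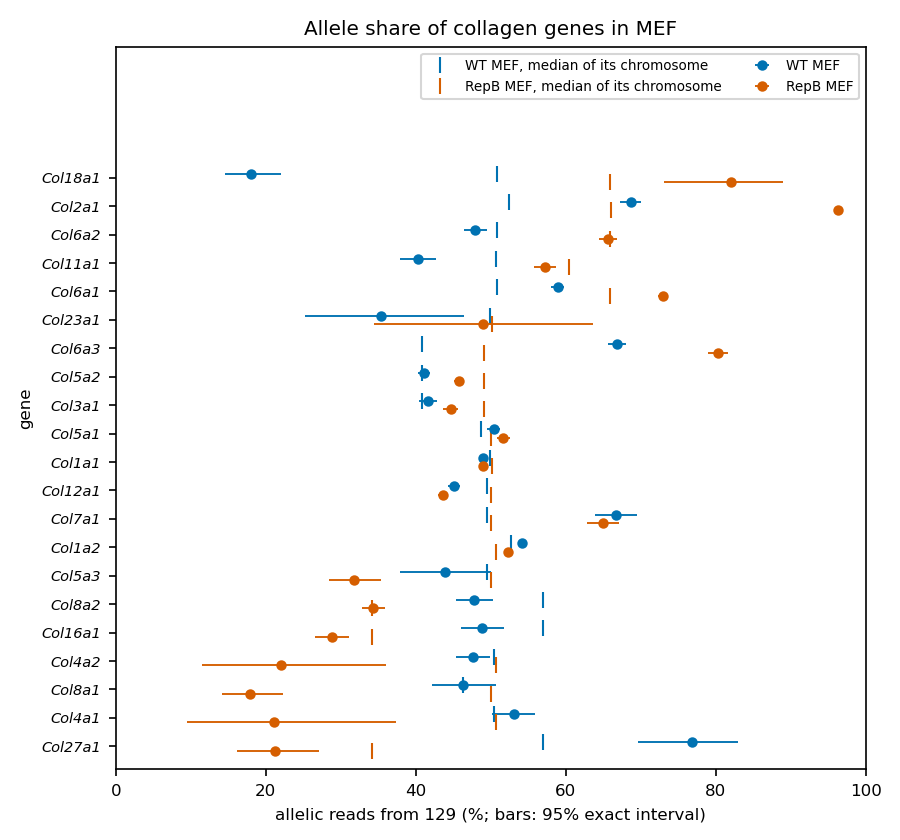
Share of allelic reads from the 129 strain (x axis, percent) for the 21 members with at least 20 such reads in both MEF libraries (y axis, ordered by the difference), in WT MEF (blue) and RepB MEF (orange); bars are 95% exact intervals and ticks mark the median gene of the same chromosome. Col18a1 moves from 18.0% to 82.0% and Col27a1 from 76.8% to 21.2%, while Col1a1 is near 49% in both.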

How the data were processed

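RNA-seq counts of 8 of the series' 50 samples were used, with 42 not analysed here. The authors deposited 3 tables (ES replicate 1, ES replicate 2, MEF) of whole-number counts of reads per gene, not normalized, for all reads and for reads given to each strain (columns headed mus and cas, taken as 129 and CAST from the labelled cross). Per the file headers the layout is that of featureCounts, with 1 exon length per gene (a length in bases, used for RPKM). Per the submitters' processing notes the series used build mm9 and TopHat, Novoalign, SAMtools, bedtools, cutadapt, featureCounts, HOMER and Juicer. Their versions, roles and the strand setting are not given in the sources used here, so antisense and overlapping genes cannot be told apart.

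One model over the 6 ES libraries was fitted in R 4.3.3 by edgeR 4.0.16 (filterByExpr with minimum count 10 and minimum total 15, TMM, quasi-likelihood F-test, genotype only), giving 15149 genes tested and a biological coefficient of variation of 9.49%. A gene was called at 0.05 after Benjamini-Hochberg adjustment over all genes tested. MEF ratios used TMM over the 2 MEF libraries, a prior count of 2, a mean of at least 1 CPM and a call past 2-fold. Levels used TMM over all 8 libraries. Allele shares needed at least 20 allelic reads. Intervals are 95% exact, floors are 3 counts per library, and both cover counting error only, since no molecular identifiers are stated. Promoter windows came from a RefSeq table (GRCm38.p6), motifs were searched on both strands, and no genome of build mm9 or protein table was used. The fitting script was tested on simulated data. Alternatives were RLE scaling, DESeq2 1.42.0, no filter, only the genotypes compared, a replicate block, and each library left out.

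Members and gene lists were chosen with earlier results of these data known. Genes given by value were members called in any comparison, past 2-fold in MEF, among the 12 highest per length in wild-type ES or MEF, and their partner chains, plus up to 4 called genes per pathway list (if none was called, the 2 lowest p). Some genes were named after their values were seen. These were the neighbours Col6a4 and Col6a5, the members given for the ES to MEF comparison and for allele shares, and single marker genes. Thbs2, Nid1, Nid2, some chain pairs and the pathway genes given in MEF were also named in this way.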

Additional observations from a re-analysis of the deposited data

Results flagged for a closer look

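Of the members called in ES cells that had a mean of at least 1 CPM in fibroblasts, 3 went the other way past 2-fold there. Of the rest, Col18a1 was lower in both cell types (log2 ratio -2.72 in MEF). Col2a1, Col5a3, Col8a2 and Col12a1 lay within 2-fold in MEF (0.61, 0.58, 0.49 and -0.30). The like share over all genes was not taken, so the count is not read as particular to collagens. Col15a1 changed by 1.13 in RepB+/- and 0.74 in RepB-/- ES cells on the log2 scale, and Col8a1 by 0.82 and 0.95, each with both mutant libraries above both wild-type libraries, while both genes were lower in the 1 RepB MEF library. Col4a4 changed by 1.79 in RepB+/- ES cells, on 7 to 46 reads a library, and was lower in RepB MEF. The difference between cell types was not tested, because MEF has 1 library a genotype. Below that minimum, Col6a6 was 6.06-fold lower in RepB MEF (95% exact interval 2.17 to 20.9, on 18 and 5 reads) and Col4a3 6.73-fold lower (1.34 to 65.04, on 8 and 2 reads).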

How the results depend on the processing

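Of 16 member calls, 5 were kept in every alternative run. Over 175 values of called members under other settings, 34 lost the call and 0 changed direction (DESeq2 gave no adjusted p for Col4a3 in RepB-/-, which is not counted). Leaving out 1 library in turn gave, for members in RepB+/-, 3 to 9 that rose and 0 to 4 that fell, and in RepB-/- 2 to 9 and 0 to 2. For pathway genes it gave 3 to 11 that rose and 3 to 15 that fell in RepB+/-, and 6 to 21 and 2 to 7 in RepB-/-. Under DESeq2, 1 member fell in RepB-/-, and with no filter on low counts 1 fell in RepB+/-. With the replicate number as a replicate block, 2 members fell in RepB+/- and 5 in RepB-/-, and pathway genes numbered 14 that rose and 15 that fell in RepB+/- and 23 and 11 in RepB-/-. Same-numbered libraries deviated together with correlations of 0.108, 0.0695 and 0.186, not all above 0.1, and the labels do not say what a number shares, so the pairing is not used above. All 16 member calls were kept under the block. Over all genes, 1382 rose and 1036 fell in RepB+/- (519 to 1500 and 271 to 1120 with 1 library left out, 1675 fell under the block), and 1101 and 832 in RepB-/- (440 to 1541 and 247 to 1219, 1667 and 1493 under the block). Between the mutants 3 rose and 10 fell (13 and 17 with DESeq2, 50 and 74 with no filter, 1 and 5 with only these genotypes, 31 and 49 under the block, 1 to 16 and 1 to 50 with 1 library left out). In MEF a minimum of 5 CPM left 1 member higher and 6 lower. The cause of these changes was not tested. Members under 1 CPM in ES cells rest on few reads.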
